A study of Mus musculus with 2 samples.

Results

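The cells described are proximal tubule cells of mouse kidney that carried RNA of the mitotic machinery. A barcode, standing for 1 captured cell, entered the group when it passed the quality filter (200 genes or more, and no more than 20% of its UMIs from mitochondrial genes) and held at least 1 UMI of 3 or more of the 5 proximal tubule genes Lrp2, Slc34a1, Cubn, Slc22a6 and Slc27a2, no UMI of the leukocyte gene Ptprc, and at least 1 UMI of 2 or more of the 4 proliferation genes Mki67, Top2a, Birc5 and Cdk1. A UMI, or unique molecular identifier, counts 1 captured RNA molecule. This rule found 319 cells among 21661 cells passing the quality filter, 265 of 11429 in the young library and 54 of 10232 in the old library. They are called cycling tubule cells here.

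Kidney cells of MRL-lpr mice, which carry the Fas lpr mutation and develop lupus-like nephritis with age, were profiled by droplet-based single-cell RNA sequencing. There was 1 library of young mice (the control or mildly diseased stage) and 1 of old mice (the severely diseased stage), so both ages carried the same mutation, neither was treated and no wild-type kidney was compared. Each library came from pooled kidneys, after density-gradient enrichment of leukocytes, a magnetic enrichment for innate lymphoid cells and a sort of live cells, and the tubule cells are those that passed these steps. With 1 library per age no test of age or of any gene was possible, cells are not replicates, and every interval is a 95% interval of counting error only. The young library held 15076 barcodes and 156787812 UMIs and the old 12622 barcodes and 126334256 UMIs, in both cases more barcodes than the number of sorted cells given in the study's methods. The libraries shared 41 barcodes of all, 26 of those passing the filter and none of the cycling tubule cells. The methods name female mice, but Y-linked genes had UMIs in 161 of the 265 young cycling tubule cells and in 32 of the 54 old ones.

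The proximal tubule reabsorbs most of the filtered glucose, amino acids, phosphate and protein, and its cells are largely quiescent in the adult kidney. After damage, surviving tubule cells re-enter the cell cycle and refill the epithelium. In a cycling cell, E2F factors switch on the genes of DNA replication in late G1 and S phase, and the DREAM and MMB complexes, with NF-Y, time the genes of mitosis to G2 and M phase.

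Beside the rule, the label was checked against tubule genes outside it. The 37 genes of the S1 and S2 segment, S3 segment and transport lists had a median of 16843 UMIs per 1000000 UMIs (CPM) per cell in young and 15185 in old cycling tubule cells. In cycling leukocytes (Ptprc with at most 1 tubule gene and at least 2 proliferation genes, 57 young and 150 old cells) the median was 797 and 419 CPM. These leukocytes were chosen to hold few tubule genes, and 17.8% of young and 9.70% of old Ptprc cells held 3 or more of the 5 tubule genes, so tubule RNA alone does not define the cell. Among the cycling tubule cells 16 young and 2 old cells held 3 or more genes of at least 1 of 11 marker lists of other cell types, against 5 and 3 of the comparison cells. Of the 16, 10 met the pan-leukocyte list, 7 the endothelial list, 3 the B and plasma cell list and 1 the list of loop, distal and collecting duct genes. Scrublet, which scores barcodes that may hold a pair of cells, called 4 young and 0 old cycling cells doublets, and 11 young and 4 old cells held both Xist and a Y-linked gene. The exclusion of Ptprc removed 30 young and 23 old cells that met the other criteria.

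The 4 proliferation genes, used by the rule, describe the members. Mki67 (chr7:135689784-135716361, mm10), the Ki-67 antigen, had UMIs in 170 young cells (of 265) and 40 old cells (of 54), and Top2a (chr11:98992943-99024189), topoisomerase II alpha, in 183 and 46. Birc5 (chr11:117849251-117855743), the chromosomal passenger protein survivin, had UMIs in 219 and 47 cells, and Cdk1 (chr10:69335146-69352938), the mitotic kinase, in 217 and 48. Lrp2 (chr2:69424340-69586065), the endocytic receptor megalin, was found in 246 and 54. Summed over cells, Mki67 stood at 437 CPM in the young and 248 in the old cells, Top2a at 319 and 317, Birc5 at 343 and 407, and Cdk1 at 280 and 337.

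Promoter sequences of 4 genes that separated these cells from other tubule cells are shown because the genes of replication and of mitosis differ in known promoter elements. Each is the 250 bases before the RefSeq gene start (GRCm38.p6, the build the study calls mm10), written in the direction of transcription. Capitals mark CCAAT (the NF-Y box, ATTGG on the other strand), TTTGAA (the cell cycle genes homology region, CHR) and the E2F-like octamers TTTCCCGC, TTTGGCGC, TTTCGCGC and TTTGCCGC, searched on both strands, with overlapping matches run together. Rrm2 (chr12:24708004-24708253, plus strand) supplies deoxynucleotides, Mcm6 (chr1:128359706-128359955, minus strand) is a subunit of the replicative helicase, and Cdc20 (chr4:118437344-118437593, minus strand) and Ccnb2 (chr9:70421555-70421804, minus strand) drive entry into and exit from mitosis.
Rrm2: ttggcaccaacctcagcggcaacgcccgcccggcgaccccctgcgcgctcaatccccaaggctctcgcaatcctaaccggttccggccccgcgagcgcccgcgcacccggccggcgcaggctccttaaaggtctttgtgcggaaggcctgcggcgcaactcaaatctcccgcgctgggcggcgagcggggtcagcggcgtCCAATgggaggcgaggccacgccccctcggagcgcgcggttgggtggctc
Mcm6: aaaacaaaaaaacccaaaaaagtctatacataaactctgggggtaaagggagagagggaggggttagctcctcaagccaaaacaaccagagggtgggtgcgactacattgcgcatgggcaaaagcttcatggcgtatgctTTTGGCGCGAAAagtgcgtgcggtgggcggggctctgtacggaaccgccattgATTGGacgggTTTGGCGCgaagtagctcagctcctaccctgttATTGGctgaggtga
Cdc20: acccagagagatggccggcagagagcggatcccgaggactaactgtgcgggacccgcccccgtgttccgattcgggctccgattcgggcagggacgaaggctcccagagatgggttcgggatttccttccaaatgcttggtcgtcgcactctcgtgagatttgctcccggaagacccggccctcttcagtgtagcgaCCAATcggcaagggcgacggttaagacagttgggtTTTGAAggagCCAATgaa
Ccnb2: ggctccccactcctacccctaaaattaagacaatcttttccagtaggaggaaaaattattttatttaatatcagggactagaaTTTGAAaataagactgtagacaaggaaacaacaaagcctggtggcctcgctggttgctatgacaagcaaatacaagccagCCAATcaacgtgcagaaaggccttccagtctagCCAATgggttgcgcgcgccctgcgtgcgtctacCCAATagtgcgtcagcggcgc

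In these windows Rrm2 had 1 CCAAT, 46 bases before the start, and Mcm6 had 2 CCAAT and 3 E2F-like matches, some overlapping, the nearest 40 bases before the start. Cdc20 had a CHR 13 bases before the start with 2 CCAAT, and Ccnb2 a CHR 162 bases before it with 3 CCAAT. Over the cell cycle lists, 32 of 38 S-phase genes and 39 of 48 G2/M genes had a promoter in the table. CCAAT was in 20 of the 32 (62.5%) and 26 of the 39 (66.7%), against 34.5% of all 27025 promoters and 7 of 28 (25%) of the tubule lists. An E2F-like octamer was in 7 of 32 S-phase (21.9%) and 1 of 39 G2/M promoters (2.56%), against 1.92% of all. The CHR was in 3 of 32 (9.38%) and 8 of 39 (20.5%), against 16.3% of all, and CHR and CCAAT together in 2 and 7, against 5.72% of all. These are matches of letters in short windows and not measured binding sites.

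Among young tubule cells 5550 had none of the 4 genes, 484 had 1, 112 had 2, 47 had 3 and 106 had all 4. In the old library the numbers were 3244, 144, 12, 11 and 31. The summed level of 86 other cell cycle genes (38 S-phase, 48 G2/M) was higher along the same scale, with medians per cell of 573, 683, 4582, 8273 and 13220 CPM in the young and 506, 585, 2482, 9486 and 12019 CPM in the old cells. Just outside the threshold, 96 of 484 young cells with 1 gene (19.8%) and 26 of 144 old (18.1%) lay above the 95th percentile of non-cycling cells matched for depth (1148 and 992 CPM). Just inside it, 86 of 112 (76.8%) and 6 of 12 (50%) did. Of all cycling tubule cells 237 of 265 and 48 of 54 lay above it, so 28 young and 6 old members met the rule without a raised level of the other cell cycle genes. The rule and this sum come from the same cells and the values are a description.

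**Figure D1:**
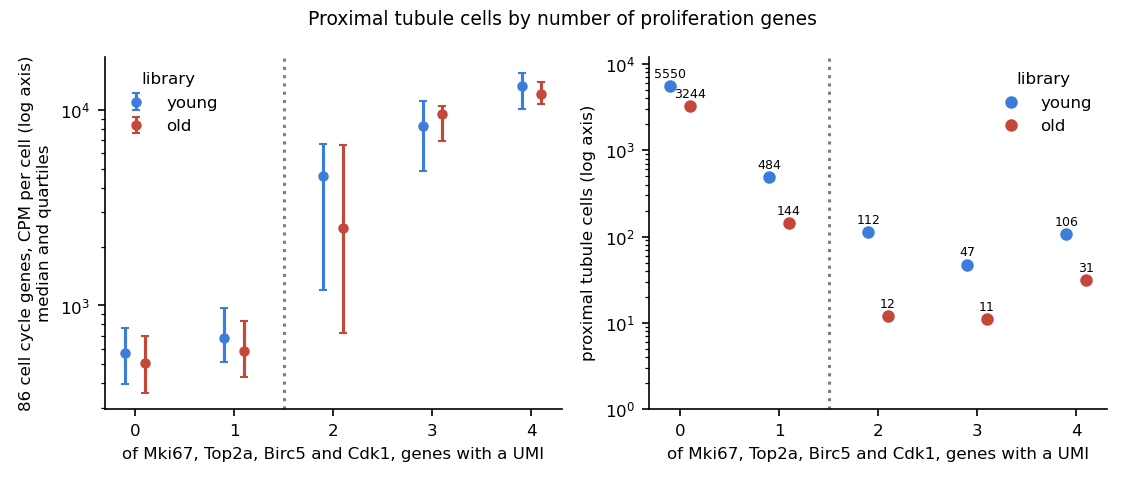
Proximal tubule cells by the number of Mki67, Top2a, Birc5 and Cdk1 with a UMI (0 to 4, x axis), with the threshold as a dotted line. Left, CPM per cell of 86 other cell cycle genes (log axis, points are medians and bars quartiles), which stay near 573 and 506 CPM at 0 genes and reach 13220 and 12019 CPM at 4. Right, number of cells (log axis), 5550 and 3244 at 0 genes, lowest at 3 genes (47 and 11) and 106 and 31 at 4.

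Cycling cells were 4.21% of proximal tubule cells in the young library (265 of 6299, exact interval 3.72 to 4.73%) and 1.57% in the old library (54 of 3442, 1.18 to 2.04%). Because a UMI is found more easily in a deeper cell, each cell was also thinned to 5000 UMIs, which left out 958 young and 384 old cells. The shares were then 2.47% (132 of 5341, 2.07 to 2.92%) and 1.24% (38 of 3058, 0.881 to 1.70%), and the intervals of the libraries did not overlap at either depth. Neutrophils, which do not divide, were used to show the free RNA background. They were taken among Ptprc cells with at most 1 tubule gene, so barcodes with more free tubule RNA were left out. They met the proliferation criterion in 1 of 129 young cells (0.775%, 0.0196 to 4.24%, median 2360 UMIs per cell, against 14847 in young tubule cells) and 0 of 172 old cells (up to 1.74% by a limit of 3 counts and 2.12% by the exact interval, median 4498 UMIs, against 15454.5). At 1000 UMIs per cell the tubule shares were 1.23% and 0.558% and lay within what the neutrophils allow (1 of 128, 0.0198 to 4.28%, and 0 of 170, up to 1.76% by 3 counts and 2.15% by the exact interval), so at that depth the share could not be set apart from background. The upper limits at full depth, 4.24% and 1.74%, also lie above the tubule shares, since few neutrophils were captured. The number of mice behind each pool is not given, and whether the libraries differ by age or by pool, sort and gradient yield cannot be told apart.

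For each cycling tubule cell, 1 tubule cell of the same library with none of the 4 genes and nearly the same number of UMIs was drawn. The matched cells had the same median depth (17911 UMIs in both young sets, 28283.5 and 28274 in the old), while the cycling cells held more genes per cell, a median of 4300 against 4132 (young) and 5836 against 5246 (old). A gene was counted as higher or lower when its summed CPM differed more than 2-fold in the same direction in both libraries. Of 6958 genes with at least 50 UMIs in each library, 399 (5.73%) were higher and 29 (0.417%) lower in cycling cells, and the median log2 ratio over all tested genes was 0.14 (young) and 0.09 (old). The members were chosen by proliferation genes in the same cells. The 50 UMIs were summed over cycling and matched cells, so a gene nearly absent from matched cells entered through the cycling cells alone. For both reasons the counts below describe the group and do not test it. A short list with no gene called is near these shares over all genes.

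Genes that license replication origins or drive the G1/S transition were higher as a list. They stood at 1107 CPM against 85.4 in young cells, a log2 ratio of 3.70 (3.56 to 3.83), and at 1233 against 74.9 CPM in old cells, 4.04 (3.78 to 4.31). Of the 19 genes 16 were higher (medians 3.97 and 4.08), and the rest had too few UMIs to be counted. Mcm6 was at 129 CPM in 148 young cycling cells against 13.8 CPM in 48 matched cells, and at 132 against 10.7 CPM in the old library. Mcm5, another subunit of the MCM2-7 helicase, was at 117 against 4.66 CPM and at 126 against 1.78 CPM. Both genes were thus found in both libraries at about the same level in cycling cells.

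The DNA synthesis genes stood at 2458 against 271 CPM in young cells, a log2 ratio of 3.18, and at 2712 against 247 CPM in old cells, 3.46 (3.31 to 3.61), with 18 of 19 genes higher (medians 3.57 and 3.87). Rrm2 (chr12:24708241-24714146), the regulated subunit of ribonucleotide reductase whose promoter is printed above, came first by the rule for named genes, although several others had 0 UMIs in the old matched cells and so only a lower bound. It was at 392 CPM in 199 of 265 young cycling cells and at 1.21 CPM in 7 matched cells, a log2 ratio of 8.34 (7.30 to 9.66). In the old library it was at 481 CPM in 47 of 54 cells against 0.594 CPM in 1 matched cell, 9.66 (7.18 to 14.97). Tk1, thymidine kinase, was at 292 against 13.3 CPM and 313 against 11.3 CPM. Pclaf, the PCNA-associated factor, was at 285 against 1.03 CPM in the young cells and had 0 UMIs in the old matched cells, a log2 ratio of at least 7.33.

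The lists of mitosis were also higher. Kinetochore and spindle genes stood at 2032 against 45.5 CPM in young cells, 5.48 (5.30 to 5.66), and at 2093 against 39.2 CPM in old cells, 5.74 (5.39 to 6.11), with 18 of 20 genes higher (medians 6.38 and 5.34). Cytokinesis genes stood at 4.36 and 4.69 with 7 of 8 higher, and mitotic kinases and checkpoint genes at 3.51 and 3.90 with 17 of 20 higher. Ube2c, the ubiquitin-conjugating enzyme of the anaphase-promoting complex, was at 322 against 0.862 CPM in young cells (log2 8.54, 7.32 to 10.17) and at 374 CPM in 42 old cells against 0 in the old matched cells (at least 7.71). Cdc20, the activator of the same complex, was at 215 CPM in 149 young cells against 0.690 CPM in 4 matched cells, and at 197 CPM in 41 old cells against 0. Ccnb2, cyclin B2, was at 145 CPM in 143 young cells against 0.345 CPM in 2 matched cells, and at 188 CPM in 38 old cells against 0. By the same rule Mxd3, Pbk, Prc1, Cdca3 and Hmmr complete the 10 most separated genes, with log2 ratios from 7.31 to 9.84 in young cells and of at least 6.67 in old cells. Of the 5, Prc1 bundles the central spindle, Pbk is a mitotic kinase and Hmmr a spindle-associated hyaluronan receptor.

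Chromosome structure genes, many of which other tubule cells also express, stood at 2.09 (2.07 to 2.12) and 2.24 (2.19 to 2.28), with 16 of 17 higher (medians 3.32 and 3.61). Stmn1, the tubulin-binding protein stathmin, was at 1840 against 177 CPM and 2360 against 175 CPM, and the histone variant H2afz at 1879 against 300 and 2571 against 304 CPM. Tuba1c was the exception, with log2 ratios of 1.47 and 0.86.

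The upstream regulators of the cycle differed less than its machinery. Of 11 genes for D cyclins, their kinases and pocket proteins, 1 of 8 tested was higher, Cdk2 (log2 1.78 and 1.85), and the list stood at 0.51 (0.44 to 0.58) and 0.70 (0.58 to 0.82), with medians of 0.62 and 0.99. Ccnd1, cyclin D1, was at 335 CPM in 206 young cycling cells and 282 CPM in 192 matched cells, and at 481 against 327 CPM in the old library. Cyclin D1 RNA was thus abundant in tubule cells of either kind. Cdk4 stood at log2 1.04 and 0.99, which put it past 2-fold in the young library alone.

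Of the 8 CDK inhibitors, 3 of 5 tested were higher in both libraries, and the list stood at 2.21 (2.07 to 2.35) and 2.64 (2.37 to 2.91), with medians of 2.37 and 2.55. They were Cdkn2c (133 against 25.7 and 180 against 32.7 CPM) and Cdkn2d (101 against 5.35 and 137 against 6.53 CPM), the INK4 proteins p18 and p19, and Cdkn3 (69.4 and 69.1 CPM, 0 in both matched sets), a phosphatase of CDK proteins. Cdkn1a, the p53 target p21, was at 44.7 CPM in 95 young cycling cells against 27.8 CPM in 30 matched cells, and at 55.5 CPM in 23 old cells against 8.91 CPM in 8 matched cells, log2 ratios of 0.69 and 2.64. By summed CPM Cdkn1a passed 2-fold in the old library alone, but the share of cells with a UMI did not follow this order. Thinned to 5000 UMIs per cell, Cdkn1a was found in 16.1% of young cycling and 3.21% of young matched cells. In the old library the shares were 9.62% and 3.85%. Among young matched cells the highest cell held 109 of the 501 UMIs of the CDK inhibitor list, and its part in the Cdkn1a sum was not examined. The difference between libraries was not tested. Of 16 p53 targets 10 were tested and none was higher or lower in both libraries, with list ratios of 0.29 (0.23 to 0.36) and 0.22 (0.10 to 0.34). Over all tested genes 5.73% were higher and 0.417% lower. Cdkn2a, which encodes the senescence marker p16, had a UMI in 0 of 265 and 0 of 54 cells, which allows a share of cells with a UMI of up to 1.13% and 5.56% and sets no limit on cells with RNA below detection.

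**Figure D2:**
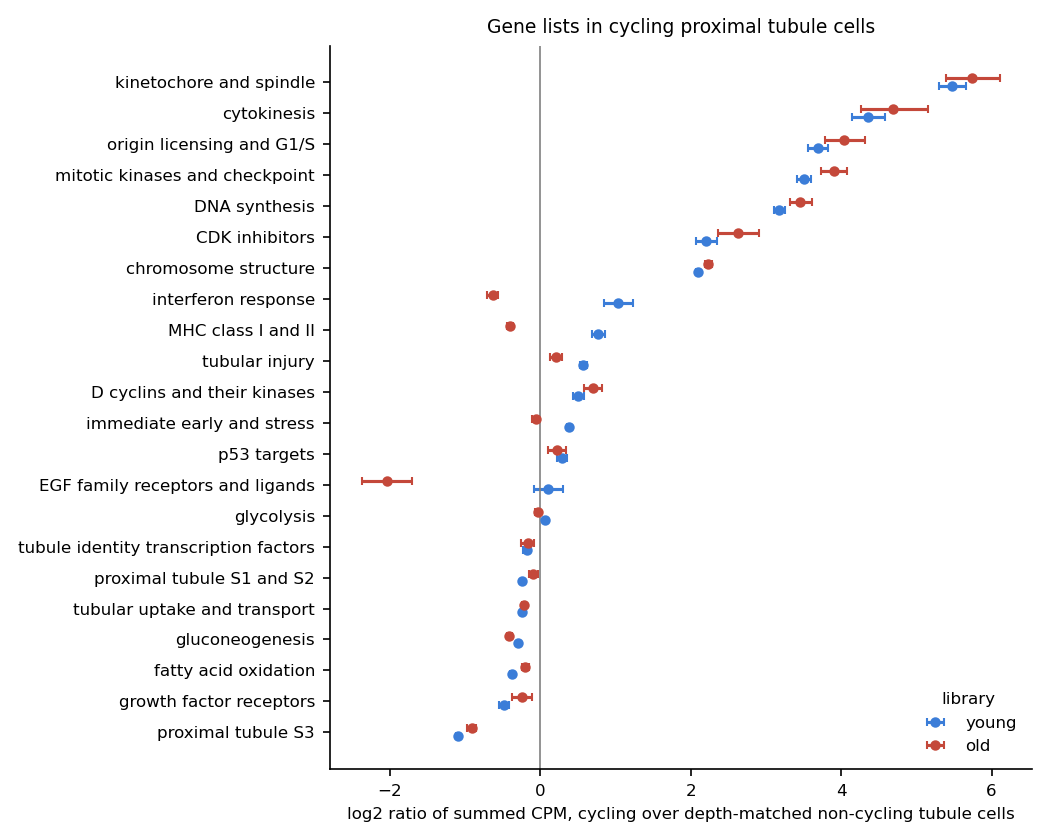
Log2 ratio of the summed CPM of each gene list (x axis) in cycling tubule cells over the same number of depth-matched non-cycling tubule cells, by library, with 95% counting intervals as bars. The cell cycle lists lie between 2.09 and 5.74, the S3 list at -1.09 and -0.91, and the interferon and MHC lists lie on opposite sides of 0 in the 2 libraries.

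The cells spread over S phase and G2/M. At 5000 UMIs per cell the S-phase lists held more UMIs than the G2/M lists in 111 of 218 young cells (50.9%, 44.1 to 57.7%) and 23 of 52 old cells (44.2%, 30.5 to 58.7%), and 33 and 8 cells lay within 2 UMIs of the line. At least 10 UMIs of both were found in 83 young and 31 old cells, so the classes are ends of a range and not separate types. In matched non-cycling tubule cells the S share was 40.8% (89 of 218) and 46.2% (24 of 52), on medians of 1 or 2 UMIs per cell. Of these, 175 and 43 cells lay within 2 UMIs of the line, so the share alone does not set cycling cells apart. In cycling leukocytes the S share was 46.3% (25 of 54) and 63.8% (88 of 138). Set against the summed levels of these leukocytes, G1/S genes stood at -0.55 and -0.06 log2, DNA synthesis at -0.06 and 0.35, mitotic kinases at -0.28 and 0.70, kinetochore and spindle at -0.44 and 0.39, and cytokinesis at -0.54 and 0.25 (tubule over leukocyte, young and old). These summed differences lay within 2-fold. Per cell, the median of the 86 cell cycle genes was 8030 CPM in young cycling tubule cells against 9947 in leukocytes, and 10531 against 4367 CPM in the old library.

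**Figure D3:**
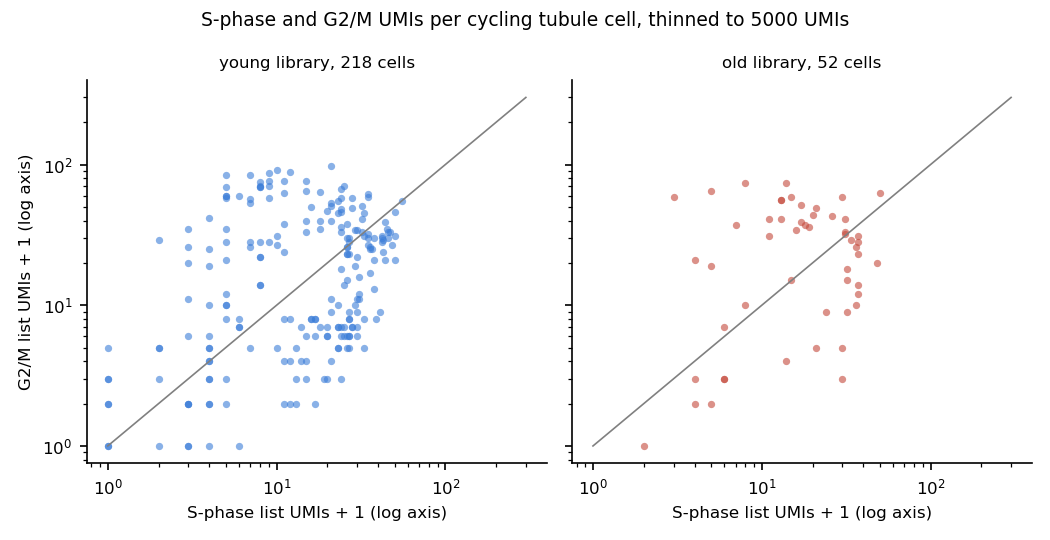
UMIs of the G2/M lists (y axis) against UMIs of the S-phase lists (x axis, both plus 1 on log axes) in each cycling tubule cell thinned to 5000 UMIs, young left and old right, with the line of equal counts. Of 218 young cells 111 lie on the S side, and of 52 old cells 23 do.

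Tubule identity genes were present in cycling cells at slightly lower levels. The 10 transcription factors and epithelial genes of the tubule stood at -0.18 (-0.22 to -0.13) and -0.17 (-0.25 to -0.08), and none of 9 tested was lower in both libraries. Over all tested genes only 0.417% were lower. A count of 0 lower genes, in this list and in the tubule and metabolic lists below, is near that share. Hnf4a, the factor that sets the proximal tubule program, was at 189 against 218 CPM in young and 211 against 251 CPM in old cells. Pax8 differed by -0.07 and -0.08 on the log2 scale. The uptake and transport list stood at -0.24 (-0.26 to -0.23) and -0.22 (-0.24 to -0.19) with 0 of 16 genes lower, and its most abundant gene, the sodium pump subunit gene Fxyd2, was at 6794 against 7891 CPM and 6699 against 7692 CPM.

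The segment lists differed. The S1 and S2 list stood at -0.24 (-0.26 to -0.21) and -0.09 (-0.15 to -0.03, but 0.09 among cells with a Y-linked UMI and no Xist UMI) with 0 of 11 genes lower, whereas the S3 list stood at -1.09 (-1.12 to -1.06) and -0.91 (-0.97 to -0.85) with medians of -1.07 and -0.82. Of its 10 genes 8 were tested and 2 were lower in both libraries. They were Slc7a13, an amino acid transporter of the straight tubule (191 CPM in 120 young cells against 423 CPM in 140 matched cells, and 113 against 257 CPM), and Slc5a8, a sodium-coupled monocarboxylate transporter (43.3 against 110 and 26.0 against 53.5 CPM). Acy3, an aminoacylase, was at 1081 against 2147 CPM in young and 1174 against 2556 CPM in old cells, just short of 2-fold in the young library. Napsa was at 591 against 1629 CPM and 567 against 851 CPM.

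Counted per cell at 5000 UMIs, S1 and S2 UMIs outnumbered S3 UMIs in 66.5% (59.8 to 72.7%) of young cycling cells and 51.8% (45.0 to 58.6%) of matched cells. In the old library the shares were 59.6% (45.1 to 73.0%) and 42.3% (28.7 to 56.8%), intervals that overlap. Whether more S1 and S2 cells cycled or cycling cells held less S3 RNA cannot be told apart. Several S3 genes are known to follow sex hormones in mouse kidney, and among cells with a Y-linked UMI and no Xist UMI (150 young and 28 old cycling cells) the S3 list stood at -1.03 and -0.96.

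Metabolic genes differed little. Gluconeogenesis stood at -0.29 and -0.41 (0 of 6 lower), fatty acid oxidation at -0.37 and -0.20 (0 of 18 lower, 17 tested) and glycolysis at 0.07 and -0.03 (0 of 12 higher, 9 tested, old median 0.01). The wider differences were in Pck1, the rate-limiting enzyme of gluconeogenesis (1004 against 1532 and 609 against 1145 CPM), in G6pc, which releases free glucose (264 against 419 and 177 against 428 CPM), and in the young library in Acadm, the medium-chain acyl-CoA dehydrogenase (553 against 1222 CPM). Acadm stood at 471 against 626 CPM in the old library.

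The 10 lowest of all tested genes included enzymes of steroid, fatty acid and amino acid metabolism. Hsd11b1 (chr1:193221634-193264075), which regenerates active glucocorticoid, was at 22.8 CPM in 40 young cycling cells against 145 CPM in 67 matched cells, a log2 ratio of -2.67 (-2.95 to -2.41). In the old library it was at 12.4 CPM in 9 cells against 104 CPM in 20 matched cells, -3.07 (-3.79 to -2.41). Acsm3, an acyl-CoA synthetase for medium-chain acids, was at 151 against 469 CPM (-1.63) and 106 against 293 CPM (-1.46). Gusb, the lysosomal beta-glucuronidase and a classic androgen-induced gene of mouse kidney, was at 23.3 against 88.8 CPM (-1.93) and 34.3 against 84.4 CPM (-1.30).

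The other 7 of the 10 lowest genes were Hpd, of tyrosine breakdown (-1.72 and -1.33), Il34, a ligand of the macrophage growth factor receptor (-1.31 and -1.31), Cyp2d9, a male-biased cytochrome P450 (-3.48 and -1.25), Hist1h4i, a histone H4 gene (-1.41 and -1.52), Kng2, a kininogen (-1.76 and -5.84), and the predicted genes Gm15889 and Gm853. For Kng2 the old value came from 2 matched cells and was -0.02 without cells holding 3 genes of another cell type. Among cells with a Y-linked UMI and no Xist UMI, Hsd11b1 stood at -2.60 and -2.96, Acsm3 at -1.74 and -1.54 and Gusb at -1.85 and -1.47, whereas Hpd stood at -0.23 in the young library.

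Of the 23 injury genes 8 were tested and none was higher or lower in both libraries. Over all 6958 tested genes 5.73% were higher and 0.417% lower, so 0 of 8 is near those shares. The injury list stood at 0.57 (0.52 to 0.62) in young and 0.20 (0.12 to 0.28, but -0.14 against all non-cycling cells) in old cells. The median over genes was 0.56 in young but -1.11 in old cells, opposite in sign to the summed list. Spp1, osteopontin, was at 579 against 523 CPM and 732 against 659 CPM. Gdf15, a stress-induced cytokine, was at 374 CPM in 156 young cells against 144 CPM in 121 matched cells and at 481 against 264 CPM in the old library, and Krt8, a simple keratin, at 359 against 181 and 276 against 175 CPM. Havcr1, the injury marker KIM-1, was found in 7 of 265 young cycling cells and 11 matched cells (1.38 against 3.62 CPM), and in 0 of 54 old cycling cells (up to 5.56% of cells with a UMI) against 6 matched cells (36.2 CPM). Vcam1, a marker of tubule cells that fail to repair, was found in 1 young and 5 old cycling cells against 4 and 7 matched cells.

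Signals that could reach the cells were also described. Of the EGF family, Egfr was at 29.7 against 24.0 and 23.0 against 22.0 CPM, and 0 of 9 genes was higher in both libraries (3 tested). Over all tested genes 5.73% were higher. The EGF family list stood at 0.11 (-0.08 to 0.30) in young cells and at -2.03 (-2.37 to -1.70) in old cells, where 2 matched cells held the Egf UMIs at 175 CPM and the median over genes was 0.07. Without cells holding 3 genes of another cell type the old ratio was 0.21. Growth factor receptors stood at -0.48 and -0.25 with 0 of 12 higher (7 tested), and Ghr, the growth hormone receptor, at 259 against 452 CPM and 255 against 343 CPM. Of 20 immediate early and stress genes 18 were tested, none was higher and 1, Hspa1b, was lower in both libraries (62.1 against 126 and 7.09 against 30.3 CPM). That list stood at 0.38 (0.36 to 0.40) in young and -0.06 (-0.11 to -0.01) in old cells, where it was 0.12 without cells holding 3 genes of another cell type.

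Within cycling tubule cells, antigen presentation and interferon genes differed between the libraries. Of 7503 genes with at least 100 UMIs over the cycling cells, 76 (1.01%) were more than 2-fold higher and 114 (1.52%) more than 2-fold lower in the old library, with a median log2 ratio of 0.02. Of 10 MHC class I and II genes 8 were tested, of 16 interferon response genes 10 were, and all of these were among the higher. The 100 UMIs were summed over both libraries, so genes nearly absent from young cells entered through their old UMIs. The counts thus describe the lists and do not test them. The MHC list stood at 482 CPM in young and 4924 CPM in old cycling cells, a log2 ratio of 3.35 (3.29 to 3.42), and the interferon list at 111 and 1482 CPM, 3.73 (3.61 to 3.86). In the matched non-cycling cells the old to young ratios were wider, 4.53 and 5.41, from 282 to 6524 CPM and from 54.2 to 2299 CPM.

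Cd74 (chr18:60803848-60812652), the MHC class II invariant chain, had UMIs in 42 of 265 young cycling cells (61.1 CPM) and 49 of 54 old (1637 CPM), a log2 ratio of 4.74 (4.58 to 4.91). H2-Ab1, a class II beta chain, was found in 26 young cells at 13.3 CPM and in 43 old cells at 411 CPM. Markers that tubule cells lack were also found in a larger share of old cells, the B and plasma cell list in 33 of 265 young and 45 of 54 old cycling cells and the T cell list in 45 and 24, and their part in the class II result was not tested. The interferon-induced GTPase gene Iigp1 had 7 UMIs in 5 young cells and 444 UMIs in 24 old cells, a log2 ratio of 7.76 (6.71 to 9.08). Gbp2, Ifi47 and Igtp, of the same class, stood at 6.91, 5.20 and 4.64, the immunoproteasome genes Psmb8 and Psmb9 at 4.66 and 4.83, H2-Aa at 4.60 and the complement gene C4b at 4.76.

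The level varied widely between cells. MHC levels per cell had a median of 336 CPM in young cycling and 244 CPM in young matched cells, and of 4677 and 5172 CPM in the old library, where single cycling cells ranged from 115 to 18313 CPM. Interferon medians were 61.5 and 26.1 CPM in young, and 945 and 752 CPM in old cells, so in the old library the median and the sum (1482 against 2299 CPM) order cycling and matched cells oppositely. The 5 highest cells held 41.3% of the interferon UMIs of old cycling cells and 46.9% of those of matched cells. In the young library the 16 cells with 3 or more genes of another cell type held 21.4% of the MHC and 21.9% of the interferon UMIs, and without such cells the cycling to matched log2 ratios were 0.52 and 0.67 in place of 0.77 and 1.04. In the old library the MHC ratio was -0.41, and 0.26 without cells holding a pan-leukocyte UMI, so its direction depended on which cells were kept.

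**Figure D4:**
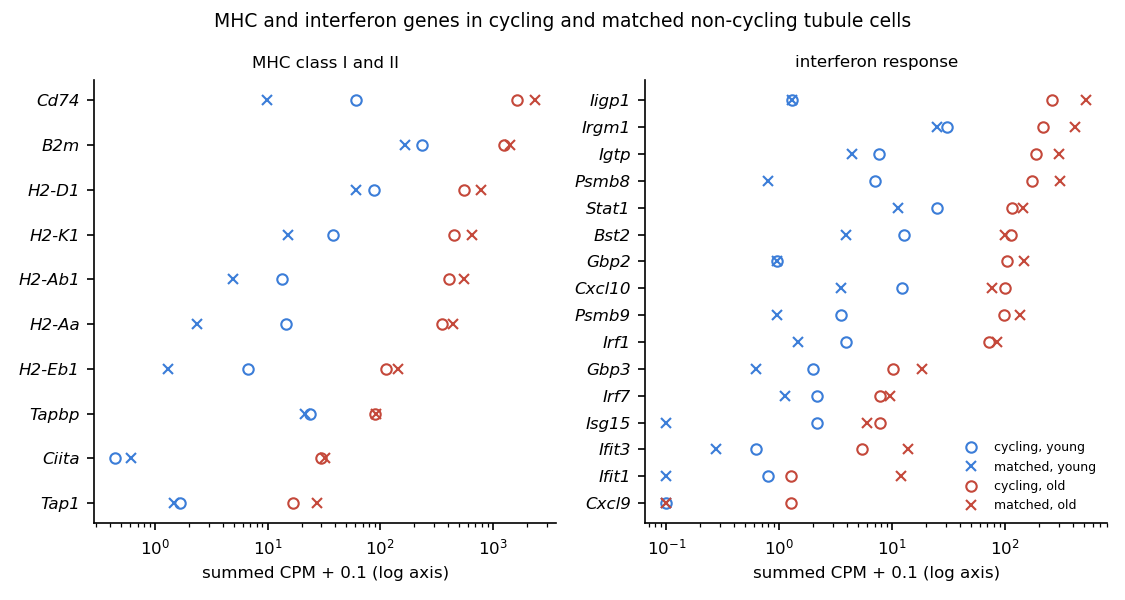
Summed CPM plus 0.1 (log axis) of each MHC (left) and interferon (right) gene in cycling (circles) and depth-matched non-cycling (crosses) tubule cells of the young (blue) and old (red) library. Cd74 lies at 61.1 CPM in young and 1637 CPM in old cycling cells, below the 2367 CPM of old matched cells.

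The cell cycle lists differed little between the ages within cycling cells. G1/S genes stood at 0.16, DNA synthesis at 0.14, mitotic kinases at 0.14, kinetochore and spindle at 0.04, cytokinesis at 0.15 and chromosome structure at 0.25 (log2, old over young), and none of their tested genes passed 2-fold in either direction. Without cells holding a pan-leukocyte UMI all 6 ratios lay below 0, from -0.77 to -0.20. Of the proliferation genes of the rule, which chose the members and were not tested, Mki67 was lower in the old cells, at 248 against 437 CPM. Top2a was about level, and Birc5 and Cdk1 were higher in the old cells. Cenpf, a kinetochore protein of late G2, was at 145 CPM in old against 244 CPM in young cells, like Mki67 within 2-fold.

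Several histone genes formed the exception. Hist1h1b (chr13:21779883-21780625), a linker histone H1 gene, had 243 UMIs in 24 young cycling tubule cells and 1 UMI in the 54 old cells, a log2 ratio of -6.15 (-11.46 to -3.66). The 5 highest young cells held 154 of these UMIs (63.4%), and the counting interval takes no account of such concentration in few cells. Counted by cells with a Hist1h1b UMI, the contrast was narrower, 9.06% in the young against 1.85% in the old library. Hist1h2ae, an H2A gene, had 392 UMIs in 80 young cells and 7 UMIs in 3 old cells (-4.03, -5.36 to -2.98), and Hist1h1d, a further H1 gene, 174 UMIs in 52 cells and 2 UMIs in 2 cells (-4.67, -7.73 to -2.79). For Hist1h2ae and Hist1h1d the 5 highest young cells held a smaller part of the young UMIs, 28.1% and 31.6%. These 3 genes were on the list of the 10 lowest. Leaving out cells with 3 genes of another cell type left 233, 378 and 161 young UMIs against 1, 7 and 2 old.

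The other Hist1 genes with at least 100 UMIs were chosen after their values had been seen. Hist1h4d had 205 UMIs in 83 young cells and 5 UMIs in 3 old cells (-3.58), and Hist1h2ap 298 and 43 UMIs (-1.02). Hist1h1a (-0.39), Hist1h3c (0.40) and Hist1h1e (0.21) stayed within 2-fold, as did Hist1h2bc (0.70, 218 and 354 CPM) and Hist1h1c (0.67, 76.5 and 122 CPM), which were higher in old cells. Hist1h4i was more than 2-fold higher in old cells (1.04, 20.4 and 41.9 CPM), so the Hist1 genes did not move together. Cycling leukocytes of the same libraries did not show falls of that size in Hist1h1b, Hist1h2ae, Hist1h1d and Hist1h4d. Hist1h1b was at 492 CPM in young and 339 CPM in old leukocytes, Hist1h2ae at 409 and 297 CPM, Hist1h1d at 51.1 and 53.2 CPM, and Hist1h4d at 103 and 122 CPM. In leukocytes Hist1h2ap stood at -0.92, close to its ratio in tubule cells, and Hist1h1a at -1.04, a wider fall than in tubule cells. The falls of Hist1h1d, Hist1h2ae and Hist1h4d were not particular to cycling tubule cells, whereas Hist1h1b was about level in the non-cycling ones, on few UMIs. In all non-cycling tubule cells, at far lower levels, Hist1h1d had 240 young and 18 old UMIs (-3.03). There Hist1h2ae had 60 and 5 (-2.88), Hist1h4d 372 and 26 (-3.13) and Hist1h1b 16 and 9 (-0.12). Summed over these 11 Hist1 genes, which differ in opposite directions, the cycling tubule cells stood at 708 CPM (687 to 730) in young and 737 CPM (697 to 779) in old cells, and Hist1h2bc gave 1263 of the 4103 young and 599 of the 1248 old UMIs. Most replication-dependent histone RNAs lack a poly(A) tail and their gene copies are nearly identical, so capture on oligo(dT) and the assignment of reads among copies make these counts uncertain.

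**Figure D5:**
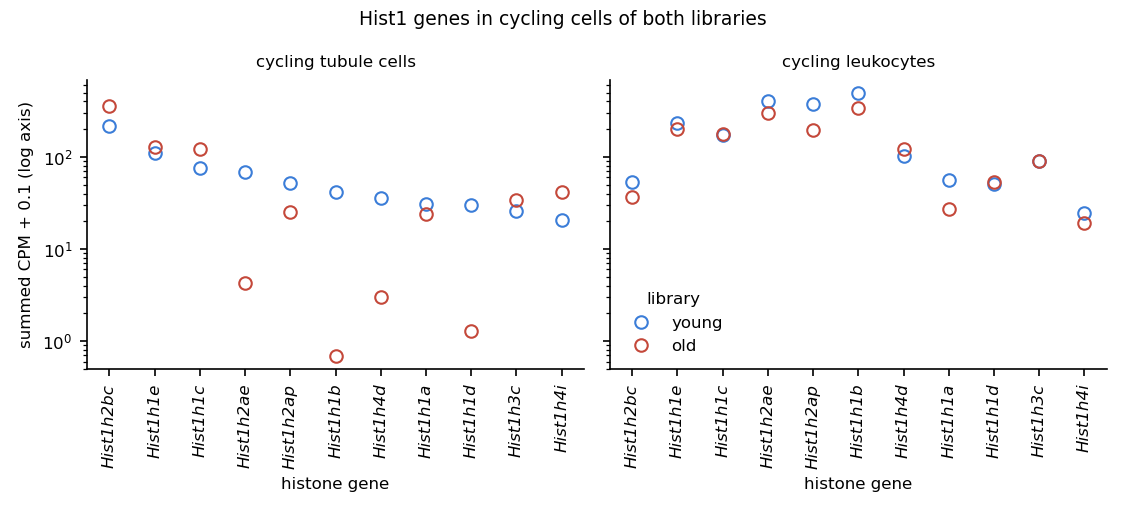
Summed CPM plus 0.1 (log axis) of 11 Hist1 genes in cycling tubule cells (left) and cycling leukocytes (right) of the young and old library. Hist1h1b lies at 42.0 and 0.591 CPM in young and old tubule cells but at 492 and 339 CPM in leukocytes.

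The rest of the lower end in old cells held endothelial genes together with Ptgds, Car3 and Sparc. Ptgds, prostaglandin D synthase, had 454 UMIs in 29 young cells and 0 in old cells (log2 at most -5.47, and -5.46 in matched cells). Car3, a carbonic anhydrase, had 661 and 6 UMIs (-5.01), and stood at -2.83 in matched and -2.94 in all non-cycling tubule cells. The endothelial genes Fabp4, Ly6c1, Emcn and Plvap had 141, 140, 108 and 122 UMIs in 7, 8, 8 and 11 young cells and 0, 0, 0 and 1 UMIs in old cells. Without the 16 young cells with 3 or more genes of another cell type they had 0, 2, 1 and 4 UMIs. Emcn and Plvap are on the endothelial list that helped to pick those cells, whereas Fabp4 and Ly6c1 are not. Sparc, a matrix protein, had 388 UMIs in young cells, 176 without those cells, and 0 in old cells. In all non-cycling tubule cells Sparc had 2271 young and 112 old UMIs. There Fabp4, Ly6c1, Emcn and Plvap had 767, 794, 603 and 880 young and 7, 47, 1 and 9 old UMIs. These falls were thus not particular to cycling tubule cells. Of all cells passing the filter, 324 of 11429 young and 24 of 10232 old cells held 3 or more endothelial list genes.

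Of the 11 marker lists of other cell types, the loop, distal and collecting duct list had 145 UMIs in young cycling against 17 in matched cells, and stood at 8.27 against 561 CPM in the old library, where 9 matched cells held its UMIs. The other 10 stayed under 100 CPM in each set. In young cycling against matched cells the pan-leukocyte list stood at 54.0 against 19.8 CPM, endothelial at 79.6 against 2.41, B and plasma cell at 42.1 against 5.0, T cell at 10.4 against 6.73, ILC2 at 9.67 against 6.73, myeloid at 6.91 against 10.3, neutrophil at 3.45 against 2.59, podocyte at 7.25 against 1.03, stromal at 0.518 against 0.172 and erythroid at 17.6 against 16.0 CPM. Without cells holding 3 genes of another cell type the young log2 ratios were 0.36 for the pan-leukocyte, 0.81 for the endothelial and 0.39 for the B and plasma cell list. Those cells were picked by these same lists, so the lower ratios follow in part from the choice. In old cycling against matched cells the same lists stood at 23.0 against 14.3, 3.54 against 1.19, 76.8 against 77.8, 27.2 against 33.9, 1.77 against 3.56, 9.45 against 7.13, 5.91 against 5.35, 0.591 against 0, 0 against 0 and 1.18 against 0.594 CPM. The Y-linked list stood at 107 against 104 CPM in young and 70.9 against 102 CPM in old cells.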

How the data were processed

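The study's authors aligned 10x 3′ v3.1 reads to mm10 and counted UMIs with Cell Ranger (3.1.0 in the matrix headers). The deposited matrices hold raw UMI counts, 31053 genes per barcode, with totals of 156787812 (young) and 126334256 (old). Groups came from the age label, with 1 library per age. CPM were computed from UMIs summed over cells, with exact Poisson intervals, exact (Clopper-Pearson) intervals for shares and exact binomial intervals for ratios. A side at 0 UMIs took a floor of 3 counts. Comparison cells had 0 UMIs of the 4 proliferation genes and were paired by nearest depth within the library, with no random draw. Thinning and Scrublet used seed 7. The 10 genes of the rule were not tested. Named genes were the 2 to 4 members of each list with most UMIs, the 10 highest and 10 lowest by the smaller ratio of both libraries, and the 10 highest and 10 lowest by age by the interval bound nearest 0. Some genes that this rule names are not reported here. Members and lists were chosen with earlier results of these data known. Scripts were tested on simulated data. Doublets were scored with Scrublet in Scanpy 1.11.5, intervals computed with SciPy 1.17.1, and tables and figures made with pandas 2.3.3, NumPy 2.4.6 and Matplotlib 3.10.9 in Python 3.11.15. Gene positions are from GENCODE vM21, promoters from RefSeq (GRCm38.p6). Alternatives are given in the closing section.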

Additional observations from a re-analysis of the deposited data

Results flagged for a closer look

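Several lists stood on opposite sides of 0 in the libraries when cycling tubule cells were set against depth-matched non-cycling tubule cells, and none of these differences was tested, since each age had 1 library. The MHC list stood at a log2 ratio of 0.77 in the young and -0.41 in the old library. The interferon response list stood at 1.04 and -0.63. The immediate early and stress list stood at 0.38 and -0.058. Markers of the loop, distal tubule and collecting duct stood at 3.09 and -6.08, on 145 against 17 UMIs in the young library and 14 against 944 UMIs in the old, the last of these in 9 matched cells. Without cells holding 3 genes of another cell type the loop, distal and collecting duct ratios were 0.65 and 0.44, the MHC ratio was 0.52 in the young library and the interferon ratios were 0.67 and -0.76. The loop, distal and collecting duct list was itself used to pick the cells left out, so its change follows in part from the choice.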

How the results depend on the processing

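No paired analysis was possible because each age had 1 library and no test was made, and leaving out a replicate was impossible for the same reason. The members rest on UMIs of 4 genes, so depth limits which cells are found. The share of cycling cells was 2.03% (young) and 0.928% (old) at 2000 UMIs per cell, 2.47% (young) at 5000 and 3.39% (young) at 10000, 2.43% (young) with at least 3 proliferation genes and 4.82% (young) with at most 10% mitochondrial UMIs. The S-phase share in the young library was 43.4% with at least 3 genes and 38.5% with the DNA synthesis list alone. Genes higher in both libraries numbered 139 without cells holding a pan-leukocyte UMI (184 and 29 members left), 730 against all non-cycling cells, 618 at 20 UMIs, 124 at 200 UMIs and 766 at 1.5-fold. Genes lower numbered 48 with at least 3 proliferation genes, 7 without pan-leukocyte UMIs, 114 against all non-cycling cells, 13 at 200 UMIs and 148 at 1.5-fold. Summed over cell cycle lists the log2 ratio was 4.11 (young) and 4.33 (old) with at least 3 genes, 3.67 and 3.58 without pan-leukocyte UMIs and 3.80 (young) as a mean of each cell's CPM. Summed over tubule lists it was -0.46 and -0.40, -0.36 and -0.24, and -0.38 (young) under the same settings, -0.35 and -0.37 against all non-cycling cells and -0.37 (young) without cells holding 3 genes of another cell type. Old over young, the MHC and interferon lists together stood at 3.53 with at least 3 proliferation genes, 3.54 with at least 4 tubule genes, 3.52 without Scrublet doublets, 3.97 without pan-leukocyte UMIs and 3.71 without cells holding 3 genes of another cell type. Genes lower in the old library numbered 215 without pan-leukocyte UMIs, and genes higher 118 as a mean of each cell's CPM. In 115 other combinations of these values with a setting, a count stayed within 1.5 times and another value within its interval.

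Ratios whose interval left out 0 turned sign in the following cases. In the old library the immediate early list stood at 0.045 with at least 3 proliferation genes, 0.0030 with at least 4 tubule genes and 0.12 without cells holding 3 genes of another cell type. The EGF family stood at 0.050 without pan-leukocyte UMIs and 0.21 without cells of other markers, the MHC list at 0.26 without pan-leukocyte UMIs, the injury list at -0.14 against all non-cycling cells, the loop, distal and collecting duct list at 0.44 without cells of other markers, and the S1 and S2 list at 0.091 in cells with a Y-linked UMI and no Xist UMI. Old over young with at least 3 proliferation genes, mitotic kinases stood at -0.079, cytokinesis at -0.067, glycolysis at -0.0067 and identity factors at 0.0099. Old over young without pan-leukocyte UMIs, G1/S stood at -0.77, DNA synthesis at -0.53, mitotic kinases at -0.29, cytokinesis at -0.28, chromosome structure at -0.20, S3 at 0.24 and transport at 0.029. Kinetochore and spindle, at 0.04 with an interval that held 0, stood at -0.40. The cause was not tested. The settings that leave out cells with other markers or without a Y-linked UMI were chosen after seeing the data.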
